A study of Oryctolagus cuniculus with 9 samples.

Results

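Collagen chain genes were taken from the expression table by name and level. A gene was included when its symbol was COL, a number, A and a number, and when its FPKM (a fragment count corrected for gene length and sequencing depth) reached 0.5 in any of the 9 libraries. Of 29076 genes in the table, 42 carried such a name and 31 reached this level. These 31 were 10 fibrillar, 5 basement membrane, 4 beaded-filament and 6 FACIT chains, 1 multiplexin (COL15A1), 2 transmembrane chains, 2 short-chain network chains and COL7A1. The last gene inside the limit was COL13A1, with a highest FPKM of 0.809, and the first outside it was COL25A1, with 0.365. The other genes outside it were COL2A1, COL4A6, COL6A5, COL9A2, COL10A1, COL19A1, COL26A1 and COL28A1, and also COL9A1 and COL17A1, the 2 genes listed at 0 in all libraries.

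Collagens are secreted proteins built from alpha chains that wind around each other into a stiff helix. Fibrillar collagens (types I, III, V, XI, XXIV and XXVII) form the fibres of tendon and of the connective tissue between muscle fibres, and types I and III make up most of them. Type IV collagen forms the sheet of the basement membrane around muscle fibres and capillaries. Type VI collagen forms beaded filaments next to that sheet, and its loss in humans causes muscular dystrophies. FACIT collagens sit on the surface of fibrils, and the multiplexin type XV collagen lies at the outer side of the basement membrane in muscle and around capillaries. Fibroblasts make most of the fibrillar and type VI collagen of muscle.

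The RNA came from the diaphragm of New Zealand white rabbits, with 3 libraries in each of 3 groups. The MV_PEEP group was ventilated with positive end-expiratory pressure (PEEP, a pressure that keeps the lungs from emptying fully in expiration). Its labels give the setting as 8 without a unit and do not say how long it lasted, and this group is absent from the article. The MV group received 48 h of ventilation in volume assist-control mode with PEEP set to 0 cmH2O. Per the article, sedation was light, no muscle relaxant was given and the rabbits kept their own breathing efforts. The CON group was anaesthetized and breathed spontaneously. The methods describe pentobarbital anaesthesia, dexmedetomidine sedation and tracheostomy for animals of the CON and MV groups alike, so CON is not an untouched diaphragm. The labels call the libraries replicates and do not say whether each is a separate animal. The article gives n = 3 for its RNA-seq of CON and MV, without tying a library to a rabbit. Whether the spread behind each p-value is that between animals is thus not stated.

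Total counts were 33024311 to 41077310 in the MV_PEEP group, 24670232 to 43697018 in the MV group and 21646702 to 31791693 in the CON group. Of the markers of muscle fibres, 6 of 9 were found, with a summed FPKM of 18412 to 62072. A pair of libraries stood apart in their collagen content. The collagen genes held 2.20% of all counts in MV_PEEP replicate 3 and 0.773% in CON replicate 2, against 0.0975% to 0.270% in the other 7 libraries. The main results that rest on these libraries are given with and without them.

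MV_PEEP replicate 3 had the highest FPKM of the 9 libraries for 18 of the 31 genes, and CON replicate 2 for 9. With MV_PEEP replicate 3 set aside, CON replicate 2 was the highest of the remaining 8 libraries for 25 genes. The lowest library was MV replicate 3 for 17 genes, and MV replicate 1 and MV_PEEP replicate 1 for 6 each. Some genes passed the limit of 0.5 only through these libraries: COL24A1 in MV_PEEP replicate 3, COL11A1 in CON replicate 2, and COL8A2 and COL13A1 in both. The share of all genes highest in each library was not counted. Genes entered the test when their mean FPKM over the libraries was 0.5 or more, which 24 of the 31 did. Of these 24, MV_PEEP replicate 3 was the highest for 16 and CON replicate 2 for 7. With MV_PEEP replicate 3 set aside, CON replicate 2 was the highest for 21 of the 24. Their heatmap shows most genes above their mean in these libraries.

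**Figure D1:**
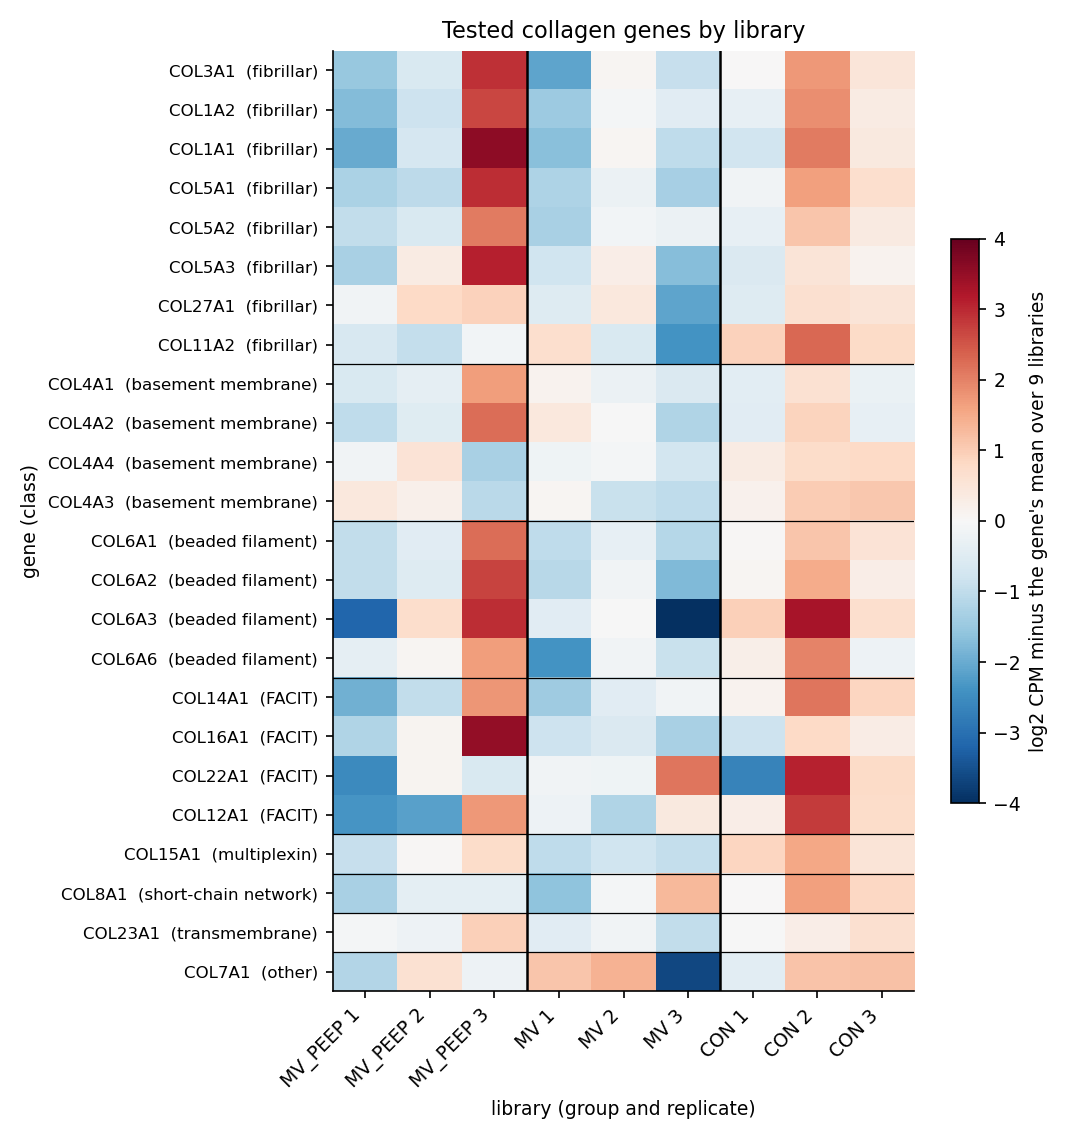
Log2 CPM (counts divided by library size after TMM scaling between libraries) of the 24 tested collagen genes (rows, by class) in the 9 libraries (columns). Each gene is centred on its mean over the 9 libraries, which are labelled by group and replicate. Most genes lie above their mean in MV_PEEP 3 and in CON 2, while COL4A3, COL4A4, COL7A1, COL8A1, COL11A2 and COL22A1 lie below it in MV_PEEP 3.

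The first question was whether collagen genes differed between ventilated and spontaneously breathing diaphragms. In the comparison of MV with CON, all 24 tested genes had a log2 fold change below 0, with a median of -1.39. Over all 12981 genes tested, 48.6% lay below 0 and the median was 0.02. At an unadjusted p under 0.05, 4 of the 24 genes were lower (COL15A1, COL4A3, COL6A6 and COL11A2), where 3.19% of all genes were. No collagen gene was higher at that level, where 3.77% of all genes were. Among the 4, COL11A2 entered the test through CON, the group where it was higher. Its mean FPKM was 1.44 in CON, 0.440 in MV and 0.422 in MV_PEEP. COL4A3 was also near the limit of 0.5, with means of 0.809, 0.343 and 0.528 in that order. After Benjamini-Hochberg adjustment edgeR called 0 of the 12981 genes (0%), 904 of which had an unadjusted p under 0.05. DESeq2 called 154 of them (1.19%), with COL15A1 as the 1 collagen gene among them, and limma on log2(FPKM + 1) called 2, neither of them a collagen gene.

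Much of this difference rested on CON replicate 2. Without it, 20 of the 24 genes stayed below 0 and the median was -0.81. COL15A1 was then the 1 gene with an unadjusted p under 0.05, where 2.21% of all genes were lower at that level, and COL4A1, COL4A2, COL7A1 and COL22A1 had fold changes above 0. Without MV replicate 3, 2 genes were lower at that level, COL15A1 and COL8A1, where 3.08% of all genes were. The MV_PEEP libraries share in the estimate of the spread. When only the 6 libraries of MV and CON were fitted, the number of lower genes at that level was 15, where 4.28% of all genes were. It was 13 when MV_PEEP replicate 3 alone was kept out of the spread, where 4.37% of all genes were.

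The classes had different medians in MV against CON. The median log2 fold change was -1.57 for the 8 tested fibrillar genes, -0.62 for the 4 basement membrane genes, -1.74 for the 4 beaded-filament genes and -1.48 for the 4 FACIT genes. Without CON replicate 2 these medians were -0.62, -0.39, -1.07 and -0.74. The basement membrane genes thus had the median nearest 0 in both cases. The difference between classes was not tested.

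**Figure D2:**
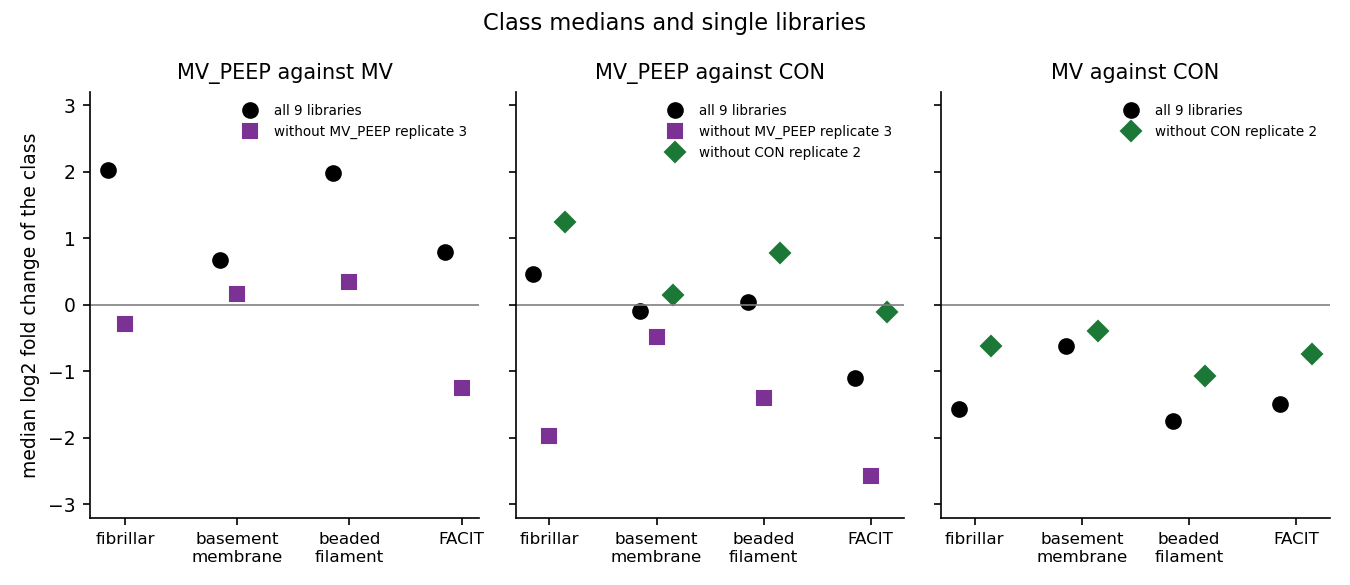
Median log2 fold change (y axis) of the tested genes of each class (x axis) in the 3 comparisons, from all 9 libraries and with MV_PEEP replicate 3 or CON replicate 2 left out. In MV against CON the 4 medians stay below 0 without CON replicate 2, while in MV_PEEP against CON the fibrillar median is 0.46 with MV_PEEP replicate 3 and -1.97 without it.

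Among fibrillar collagens, COL3A1, the single chain of type III collagen, had the highest level and averaged 49.5% of the class's summed FPKM. COL3A1 (chromosome 7, 129298041 to 129341606, plus strand, OryCun2.0) had 47.2, 101 and 1579 FPKM in MV_PEEP, 36.1, 156 and 60.2 FPKM in MV, and 114, 510.1 and 175 FPKM in CON. A pair of the MV libraries lay below all CON libraries and the other lay between CON replicates 1 and 3. The log2 fold change was -1.66 ± 1.07 (SE) in MV against CON, with an adjusted p of 0.815 (edgeR), and -1.02 without CON replicate 2.

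COL1A1 and COL1A2 encode the chains of type I collagen, the main collagen of tendon. COL1A2 had 21.4, 45.8 and 696 FPKM in MV_PEEP, 30.0, 74.0 and 44.0 FPKM in MV, and 47.4, 291 and 82.7 FPKM in CON. COL1A1 had 8.39, 23.9 and 616 FPKM in MV_PEEP, 12.3, 38.8 and 14.1 FPKM in MV, and 16.5, 161 and 40.6 FPKM in CON. For both genes MV replicate 2 lay above CON replicate 1, so the groups overlapped. The log2 fold changes of MV against CON were -1.47 ± 1.04 for COL1A2 and -1.71 ± 1.25 for COL1A1 (SE), and without CON replicate 2 they were -0.61 and -0.63.

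Type V collagen starts fibrils and sets their width. COL5A1 had 5.57, 7.45 and 162 FPKM in MV_PEEP, 6.59, 12.4 and 4.52 FPKM in MV, and 10.2, 47.2 and 19.7 FPKM in CON. COL5A2, which lies 16603 bases from COL3A1 on chromosome 7, had 5.41, 7.93 and 69.6 FPKM in MV_PEEP, 4.95, 10.7 and 7.66 FPKM in MV, and 7.13, 25.9 and 12.6 FPKM in CON. MV_PEEP replicate 3 was the highest library for both, and CON replicate 2 the next. COL5A3, a further type V chain, had 1.71, 6.09 and 56.2 FPKM in MV_PEEP, 2.81, 5.60 and 1.10 FPKM in MV, and 2.37, 6.83 and 4.30 FPKM in CON. Outside MV_PEEP replicate 3 its level was between 1.10 and 6.83 FPKM, with the groups mixed. The log2 fold changes of MV against CON were -1.75 for COL5A1, -0.97 for COL5A2 and -0.61 for COL5A3, and without CON replicate 2 they were -1.18, -0.55 and -0.35.

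COL11A2, a chain of type XI collagen best known from cartilage, was low in the diaphragm. It had 0.303, 0.276 and 0.688 FPKM in MV_PEEP, 0.907, 0.342 and 0.0699 FPKM in MV, and 0.786, 2.77 and 0.767 FPKM in CON. All MV_PEEP libraries lay below all CON libraries, and MV replicate 1 lay above CON replicates 1 and 3. The log2 fold change was -2.08 ± 0.79 in MV_PEEP against CON (SE, adjusted p = 0.719, edgeR) and -1.84 ± 0.78 in MV against CON (SE, adjusted p = 0.694, edgeR). They were -1.40 and -1.17 without CON replicate 2, and neither then had an unadjusted p under 0.05. The highest of its 9 counts was 344, in CON replicate 2, and the lowest 15, in MV replicate 3. Markers of chondrocytes were near 0 in all libraries, with a summed FPKM of at most 1.33 and MATN1 listed at 0 throughout.

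The other fibrillar chains were minor. COL27A1 had 0.351 to 5.34 FPKM and a log2 fold change of -0.69 in MV against CON, or -0.49 without CON replicate 2. COL24A1 and COL11A1 did not reach a mean FPKM of 0.5 and were not tested. COL24A1 had 1.87 FPKM in MV_PEEP replicate 3 and at most 0.310 FPKM elsewhere. COL11A1 had 1.84 FPKM in CON replicate 2 and at most 0.143 FPKM elsewhere.

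**Figure D3:**
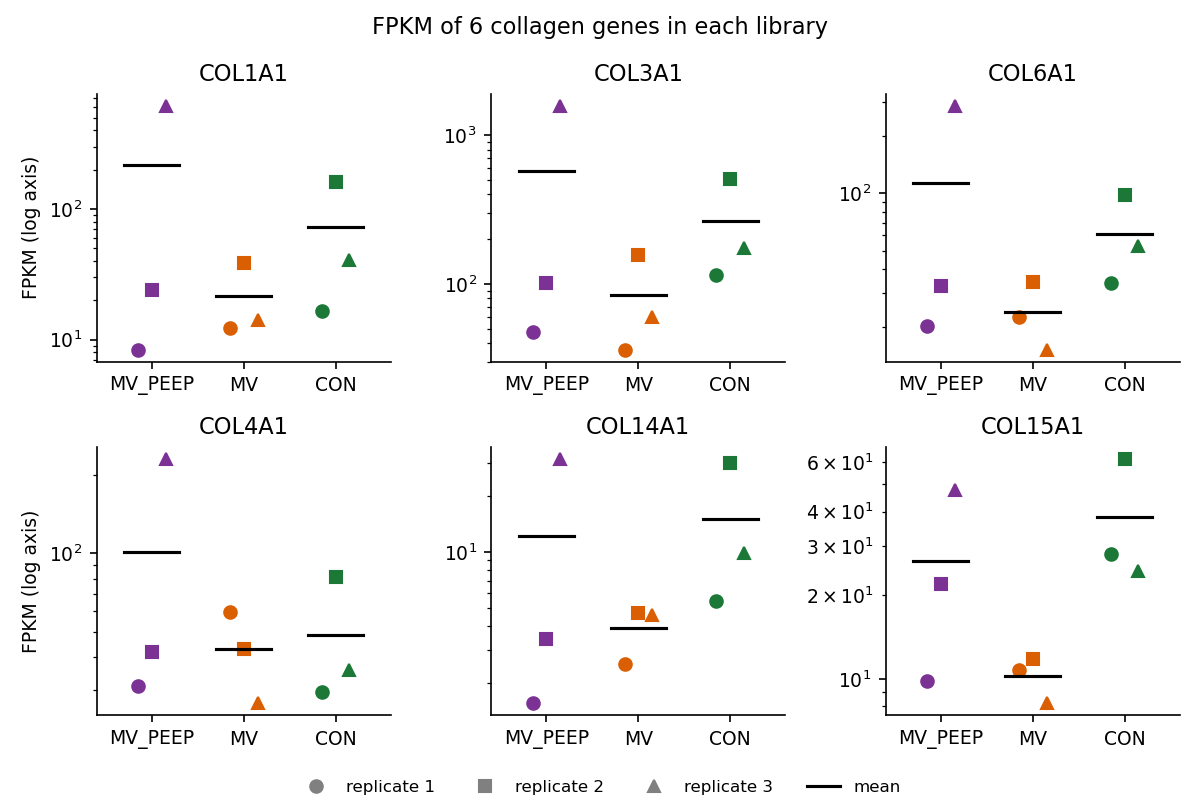
FPKM (log axis, a separate range for each gene) of COL1A1, COL3A1, COL6A1, COL4A1, COL14A1 and COL15A1 in the 3 groups, with symbols for the replicate and a line at the group mean. MV_PEEP replicate 3 is the highest library in 5 of the 6 genes, and for COL15A1 and COL14A1 all MV libraries lie below all CON libraries.

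COL4A1 and COL4A2 encode the chains of the type IV collagen found in nearly all basement membranes. They lie head to head on chromosome 8, with COL4A1 at 111524913 to 111654797 on the minus strand and COL4A2 at 111654828 to 111791972 on the plus strand, 30 bases apart. COL4A1 had 30.9, 41.8 and 231 FPKM in MV_PEEP, 59.8, 42.9 and 26.7 FPKM in MV, and 29.4, 81.2 and 35.6 FPKM in CON. COL4A2 had 11.8, 19.3 and 171 FPKM in MV_PEEP, 36.6, 25.9 and 8.70 FPKM in MV, and 14.5, 49.8 and 17.7 FPKM in CON. The MV libraries lay on both sides of CON replicates 1 and 3. The log2 fold changes of MV against CON were -0.25 for COL4A1 (95% interval -1.60 to 1.10) and -0.29 for COL4A2 (-2.10 to 1.51). Without CON replicate 2 they were 0.13 and 0.26, so neither direction held.

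MV replicate 1 was the library with the largest basement membrane share, 39.2% of the summed collagen FPKM, against 37.5% for its fibrillar genes. In the other MV libraries the basement membrane share was 15.3% and 17.2%, in the MV_PEEP libraries 24.0%, 18.2% and 9.38%, and in the CON libraries 13.3%, 9.02% and 10.7%. CON replicates and MV_PEEP replicate 3 were thus the 4 libraries with the smallest shares. The summed FPKM of 8 endothelial markers was 70.0, 183 and 314 in MV_PEEP, 171, 109 and 35.0 in MV, and 82.8, 195 and 101 in CON. MV replicate 1 was the highest and MV replicate 3 the lowest MV library for these markers, for COL4A1 and for COL4A2. Neutrophil markers also summed highest in MV replicate 1, at 1026 FPKM. The part of these cells in the collagen values was not tested.

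COL4A3 and COL4A4, with COL4A5, form the second type IV network, known from kidney and lung basement membranes. COL4A3 had 0.634, 0.614 and 0.337 FPKM in MV_PEEP, 0.567, 0.269 and 0.193 FPKM in MV, and 0.444, 1.07 and 0.914 FPKM in CON. A pair of MV libraries lay below all CON libraries. Its log2 fold change was -1.36 ± 0.56 in MV against CON (SE, adjusted p = 0.667, edgeR). It was -1.26 without CON replicate 2, with an unadjusted p of 0.088 (edgeR). COL4A4 had 1.16, 2.14 and 0.791 FPKM in MV_PEEP, 1.31, 1.31 and 0.648 FPKM in MV, and 1.35, 2.38 and 2.05 FPKM in CON. MV replicates 1 and 2 lay just below the lowest CON library and MV replicate 3 further below it, with a log2 fold change of -0.94. Without CON replicate 2 the COL4A4 fold change stayed below 0, and its unadjusted p was not under 0.05 (edgeR). Both genes were lower in MV_PEEP replicate 3 than in either other MV_PEEP library, where COL4A1 and COL4A2 were highest. COL4A5 had 0.232 to 1.21 FPKM and was not tested.

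COL6A1 and COL6A2 encode partner chains of type VI collagen. COL6A1 had 20.2, 32.8 and 286 FPKM in MV_PEEP, 22.4, 34.3 and 15.2 FPKM in MV, and 33.9, 97.2 and 52.8 FPKM in CON. COL6A2 (chromosome 14, 163843050 to 163861095, minus strand) had 13.2, 20.7 and 261 FPKM in MV_PEEP, 14.0, 26.2 and 6.51 FPKM in MV, and 23.3, 83.7 and 28.8 FPKM in CON. For each gene 1 MV library, replicate 2, lay above the lowest CON library, CON replicate 1, and the other MV libraries lay below it. The log2 fold changes of MV against CON were -1.42 ± 0.75 for COL6A1 (SE, adjusted p = 0.773, edgeR) and -1.60 ± 0.91 for COL6A2 (SE, adjusted p = 0.795, edgeR). They were -1.11 and -1.03 without CON replicate 2.

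COL6A3, the longest partner chain of type VI collagen, was listed far below its partners. It had 0.0660, 1.24 and 8.02 FPKM in MV_PEEP, 0.556, 0.722 and 0.0113 FPKM in MV, and 1.09, 7.54 and 0.977 FPKM in CON. Its FPKM was 0.000743 to 0.0776 times that of COL6A1 in the 9 libraries. Its gene model lies on an unplaced scaffold of OryCun2.0, and how much of the transcript this model covers was not tested. In FPKM the MV libraries lay below the CON libraries, on counts of 107, 241 and 4 in MV and 264, 1477 and 163 in CON. The log2 fold change was -2.96 ± 1.46 (SE, adjusted p = 0.756, edgeR), and -1.61 without CON replicate 2. COL6A6, a further alpha chain of type VI collagen, had 0.864, 1.33 and 5.51 FPKM in MV_PEEP, 0.236, 1.11 and 0.506 FPKM in MV, and 1.11, 5.00 and 0.893 FPKM in CON. Its groups overlapped through MV replicate 2, and its log2 fold change was -1.88 ± 0.79 in MV against CON (SE, adjusted p = 0.677, edgeR). It was -0.94 without CON replicate 2, with an unadjusted p of 0.243 (edgeR).

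COL14A1, a FACIT chain that coats type I fibrils, had 1.56, 3.43 and 31.4 FPKM in MV_PEEP, 2.53, 4.70 and 4.59 FPKM in MV, and 5.44, 29.9 and 9.86 FPKM in CON. All MV libraries lay below all CON libraries. The log2 fold change of MV against CON was -1.87 ± 0.90 (SE, adjusted p = 0.739, edgeR), and -1.14 without CON replicate 2. COL16A1, a FACIT chain known from skin and cartilage, had 1.46, 4.08 and 59.6 FPKM in MV_PEEP, 2.19, 2.43 and 1.15 FPKM in MV, and 1.59, 6.54 and 3.74 FPKM in CON. It made up 62.6% of the FACIT sum in MV_PEEP replicate 3, against 14.0% to 45.4% in the other libraries, where COL14A1 had 38.3% to 66.8%.

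COL22A1 and COL12A1 are FACIT chains of tissue junctions and tendon, COL22A1 being known from the muscle-tendon junction. COL22A1 had 0.0722 to 0.570 FPKM in MV_PEEP, 0.454 to 1.78 FPKM in MV and 0.0502 to 4.55 FPKM in CON. COL12A1 had 0.0889 to 2.50 FPKM in MV_PEEP, 0.221 to 0.537 FPKM in MV and 0.480 to 3.81 FPKM in CON. CON replicate 2 was the highest library for both, as it was for COL11A1. Of 6 tenocyte markers 4 were found, and their summed FPKM was 0.327 to 10.8 in MV_PEEP, 0.708 to 1.97 in MV, and 1.04, 60.4 and 5.06 in CON. TNMD, the defining marker of tendon cells, had 10.8 FPKM in CON replicate 2, 0.152 FPKM in MV replicate 3 and was listed at 0 in the other 7 libraries. The part of tendon tissue in the values of CON replicate 2 was not tested. The FACIT chains COL21A1 (0.145 to 1.005 FPKM) and COL9A3 (0 to 1.39 FPKM) were not tested.

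COL15A1, the type XV chain, had the smallest unadjusted p of the 24 genes in MV against CON. COL15A1 (chromosome 1, 14170061 to 14279952, minus strand) had 9.89, 22.0 and 47.8 FPKM in MV_PEEP, 10.8, 11.8 and 8.23 FPKM in MV, and 28.3, 61.7 and 24.5 FPKM in CON. All MV libraries lay below all CON libraries, and MV_PEEP replicates 1 and 2 did too. It averaged 10.3 ± 1.84 FPKM in MV and 38.2 ± 20.5 FPKM in CON (SD, n = 3 each). The log2 fold change of MV against CON was -1.94 ± 0.46 (SE), a level 0.260 times that of CON, with an unadjusted p of 0.00164 and an adjusted p of 0.322 (edgeR). DESeq2 gave -1.93 with an adjusted p of 0.0050. Over 18 alternatives the fold change lay between -2.16 and -1.58, the unadjusted p was under 0.05 in 18 of 18, and the adjusted p ran from 0.0050 to 0.942. Without CON replicate 2 the fold change was -1.62.

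MV and CON did not overlap, with MV lower, for 4 of the 24 genes (COL15A1, COL14A1, COL6A3 and COL4A4), where 4.91% of all genes tested did not. No collagen gene had all MV libraries above all CON libraries, where 10.3% of all genes did. With 3 libraries against 3, an exact permutation test cannot go below p = 0.1. In bulk tissue, fewer cells of a type and less RNA per cell cannot be told apart. The summed FPKM of 10 fibroblast markers, all of them found, was 139, 284 and 1963 in MV_PEEP, 322, 299 and 287 in MV, and 404, 945 and 484 in CON. This sum was lower in each MV library than in each CON library. Of the single markers, DCN, DPT and MFAP5 were, and the other 7 overlapped between the groups or, for TCF21, were listed at 0 in both. Of 8 pericyte and smooth muscle markers, 5 were lower in MV than in CON at an unadjusted p under 0.05, where 3.19% of all genes were. All 8 had fold changes below 0. Without CON replicate 2 all 8 still lay below 0, and 2 were lower at that level, where 2.21% of all genes were. Muscle fibre markers summed to 26484 to 39821 FPKM in MV and to 54747 to 62072 FPKM in CON, with ACTA1 alone of the 6 found not overlapping. Neutrophil markers summed to 30.5 to 1026 FPKM in MV and to 2.96 to 19.4 FPKM in CON, and of the 7 found, 3 were higher in each MV library than in each CON library. The part of these cells in the collagen differences was not tested.

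**Figure D4:**
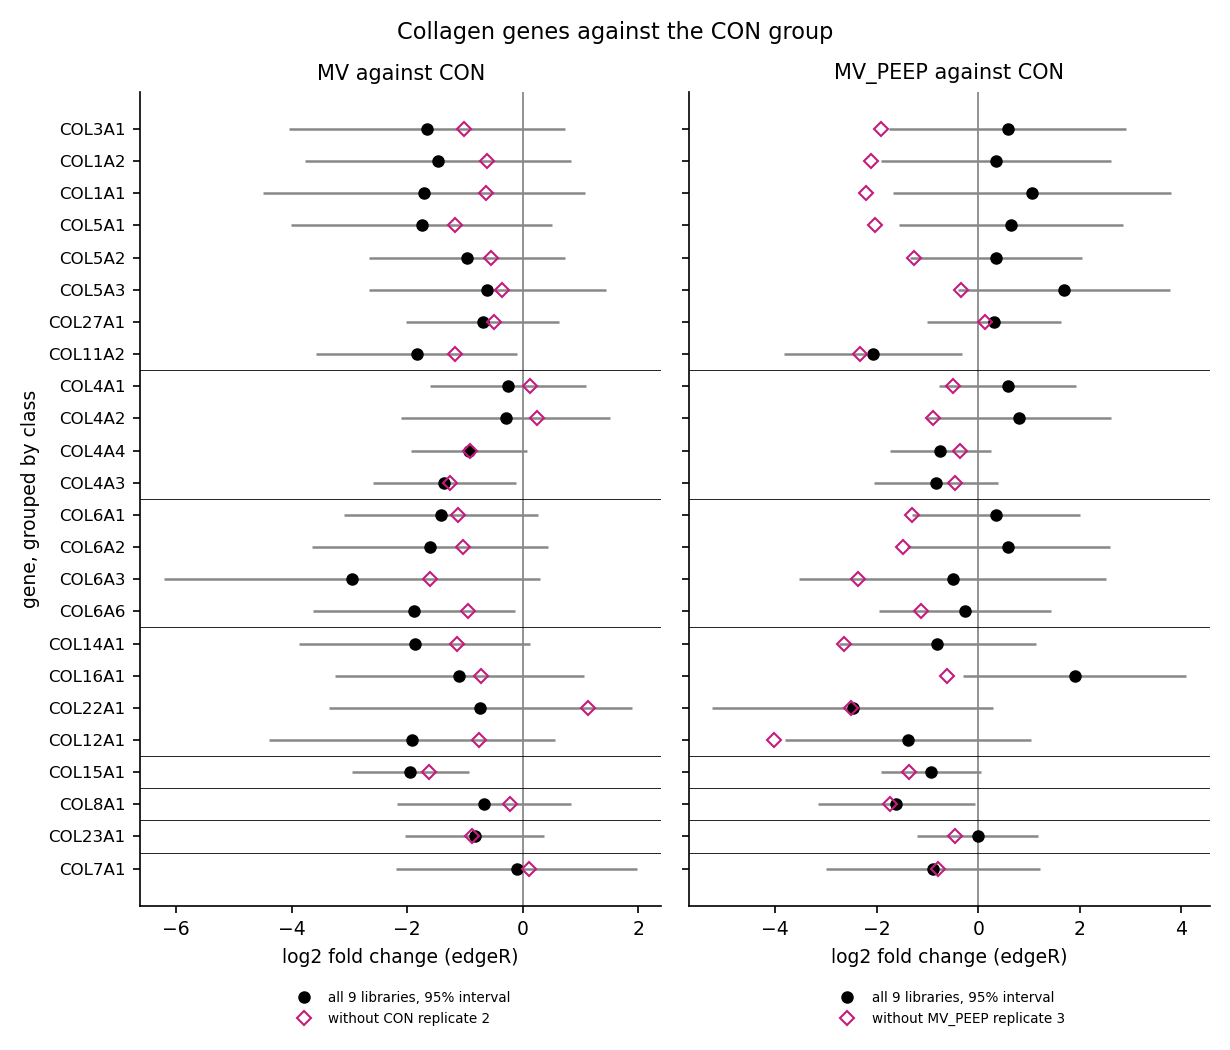
Log2 fold change (x axis) of each tested gene (y axis, by class) in MV against CON and in MV_PEEP against CON, with 95% intervals of edgeR (black) and the value with CON replicate 2 or MV_PEEP replicate 3 left out (open diamonds). In MV against CON all 24 black points lie below 0, and in MV_PEEP against CON 23 of the 24 open diamonds do.

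The comparison of MV_PEEP with CON shares the CON libraries with the comparison above. In it 12 of the 24 genes had a log2 fold change below 0, with a median of 0.15, where 45.4% of all genes lay below 0 and the median was 0.06. At an unadjusted p under 0.05, 2 genes were lower, COL11A2 and COL8A1, where 3.02% of all genes were, and none was higher, where 3.23% were. COL11A2 was the 1 gene whose MV_PEEP libraries all lay below the CON libraries, where 2.58% of all genes did, and none had them all above, where 14.2% did. COL11A2 entered the test through its level in CON, the group where it was higher. Adjusted calls were 0 of 12981 genes in edgeR, with 811 at an unadjusted p under 0.05. DESeq2 called 98 genes (0.755%) and limma on log2(FPKM + 1) called 2, none of them a collagen gene. The class medians were 0.46 for fibrillar, -0.08 for basement membrane, 0.05 for beaded-filament and -1.10 for FACIT genes.

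Of the single libraries, MV_PEEP replicate 3 moved the median and the number of genes below 0 most. Other libraries too moved the counts of 2 lower and 0 higher genes. They were 0 and 2 without MV_PEEP replicate 1, 1 and 1 without MV_PEEP replicate 2, and 0 and 0 without CON replicate 2. In the same order, 3.81% and 4.02%, 2.56% and 3.68%, and 3.05% and 2.33% of all genes were lower and higher. Without MV_PEEP replicate 3, 23 of the 24 genes lay below 0, the median was -1.34 and 11 genes were lower at an unadjusted p under 0.05. Of all genes tested, 50.3% lay below 0 in that fit and 3.74% were lower at that level. Those 11 were COL1A1, COL1A2, COL3A1, COL5A1, COL5A2, COL6A1, COL6A2, COL11A2, COL12A1, COL14A1 and COL15A1. The exception above 0 was COL27A1. COL1A1 had a log2 fold change of 1.06 with this library and -2.21 without it, and COL3A1 0.58 with it and -1.92 without it. The class medians without it were -1.97, -0.48, -1.39 and -2.57 in the order above. With CON replicate 2 left out as well, 23 genes lay below 0, the median was -0.84, and COL5A1, COL12A1, COL14A1 and COL15A1 were lower at an unadjusted p under 0.05. Of all genes, 47.6% lay below 0 in that fit and 2.72% were lower at that level.

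MV_PEEP replicate 3 was not high for every collagen gene. It exceeded the highest of the other 8 libraries by 9.11 times for COL16A1, 8.23 times for COL5A3 and 6.03 times for COL24A1. For COL1A1 this ratio was 3.83 and for COL3A1 3.10. It was 0.775 for COL15A1, 0.657 for COL12A1, 0.333 for COL8A1 and 0.104 for COL22A1, which were higher in another library.

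Markers of other cells were also high in MV_PEEP replicate 3. The summed FPKM of 3 adipocyte markers found of 4 was 405 there and 4.78 to 27.7 in the other 8 libraries. Of 7 mesothelial markers 5 were found, with a sum of 92.9 there and at most 1.61 elsewhere. KRT19, which marks the mesothelium covering the diaphragm, had 68.0 FPKM there and was listed at 0 in 6 libraries, and CALB2 was listed at 0 in all. The macrophage markers, 6 of 8 found, summed to 192 there and to 10.5 to 42.6 elsewhere. The muscle fibre markers summed to 18412 there, the lowest of the 9 libraries, and to 26484 to 62072 elsewhere. The part of these tissues in the collagen values of this library was not tested.

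COL8A1, a short-chain collagen known from vessel walls, had 0.798, 1.75 and 2.35 FPKM in MV_PEEP, 0.738, 2.06 and 4.15 FPKM in MV, and 1.70, 7.05 and 3.30 FPKM in CON. MV_PEEP replicates 2 and 3 lay between CON replicates 1 and 3, so the groups overlapped. The log2 fold change of MV_PEEP against CON was -1.62 ± 0.69 (SE, adjusted p = 0.796, edgeR), and it was -1.11 without CON replicate 2 and -1.74 without MV_PEEP replicate 3. For COL15A1 it was -0.93 ± 0.44 (SE, adjusted p = 0.822, edgeR) with all libraries -1.37 without MV_PEEP replicate 3 and -0.58 without CON replicate 2.

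The comparison of MV_PEEP with MV, the groups with and without PEEP, gave 4 of 24 genes below 0 and a median of 1.08, where 50.0% of all genes lay below 0 and the median was -0.00014. At an unadjusted p under 0.05, 6 genes were higher, where 2.26% of all genes were, and none was lower, where 1.26% were. These were COL16A1 (2.99 ± 1.03), COL5A1 (2.39 ± 1.04), COL5A3 (2.30 ± 0.96), COL6A2 (2.20 ± 0.93), COL6A1 (1.77 ± 0.76) and COL15A1 (1.01 ± 0.45), as log2 fold changes with their SE, each with an adjusted p of 0.985 (edgeR). No collagen gene had groups that did not overlap, where 4.86% of all genes were higher and 1.53% lower in this sense. Adjusted calls were 0 of 12981 genes in edgeR, with 457 at an unadjusted p under 0.05, while DESeq2 called 15 (0.116%) and limma on log2(FPKM + 1) called 1, none of them a collagen gene. Without MV_PEEP replicate 3, 13 of 24 genes lay below 0, the median was -0.25, none was higher at an unadjusted p under 0.05 and COL12A1 was lower, where 0.786% of all genes were higher and 1.29% lower. The class medians were 2.03 for fibrillar, 0.68 for basement membrane, 1.98 for beaded-filament and 0.80 for FACIT genes, and without MV_PEEP replicate 3 they were -0.29, 0.16, 0.35 and -1.25. The count of 6 higher genes was 12 without MV_PEEP replicate 1, 1 without MV replicate 1 and 0 without MV replicate 3. Of all genes, 4.96%, 1.58% and 1.49% were higher in these fits. Between the other 2 MV_PEEP libraries and the MV libraries, the collagen genes thus had no common direction.

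Ratios between chains do not depend on library size. COL1A1 to COL1A2 was 0.391, 0.523 and 0.886 in MV_PEEP, 0.409, 0.524 and 0.319 in MV, and 0.349, 0.554 and 0.491 in CON. COL4A1 to COL4A2 was 1.35 to 2.62 in MV_PEEP, 1.63 to 3.07 in MV and 1.63 to 2.03 in CON. COL6A1 to COL6A2 was 1.10 to 1.59 in MV_PEEP, 1.31 to 2.33 in MV and 1.16 to 1.83 in CON. The groups overlapped for these 3 ratios. COL5A1 to COL5A2 was 1.03, 0.939 and 2.33 in MV_PEEP, 1.33, 1.16 and 0.590 in MV, and 1.43, 1.82 and 1.56 in CON. Here the MV libraries lay below the CON libraries, with an exact 2-sided permutation p of 0.1, the smallest possible, and an adjusted p of 0.9 over the 18 tests of 6 ratios in 3 comparisons. The adjusted p of the other 17 tests was 0.9 or more.

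A ratio that was chosen after the values were seen is given with no test. COL15A1 to COL4A1 was 0.320, 0.527 and 0.207 in MV_PEEP, 0.181, 0.275 and 0.309 in MV, and 0.961, 0.760 and 0.688 in CON. All 6 ventilated libraries, MV_PEEP replicate 3 included, lay below the CON libraries. COL15A1 to COL3A1 was 0.0303 to 0.219 in MV_PEEP, 0.0756 to 0.300 in MV and 0.121 to 0.248 in CON, where the groups overlapped.

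**Figure D5:**
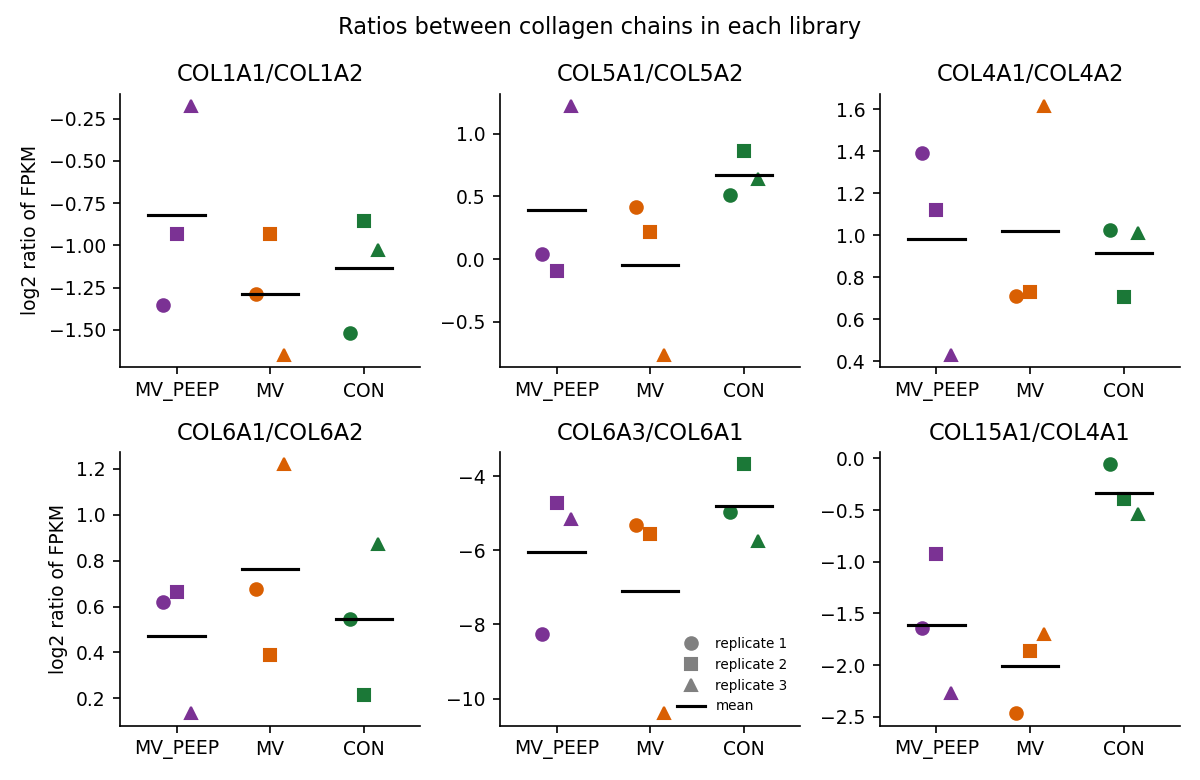
Log2 ratio of FPKM (y axis) between 6 pairs of collagen chains in the 3 groups, with symbols for the replicate and a line at the group mean. For COL15A1/COL4A1 the CON libraries lie above the 6 ventilated libraries, and for COL5A1/COL5A2 above the MV libraries, while the other ratios overlap.

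The remaining genes are chains of low level. COL7A1, which forms anchoring fibrils under epithelia, had 0.639 to 2.53 FPKM in MV_PEEP, 0.0931 to 4.17 FPKM in MV and 0.904 to 3.63 FPKM in CON. COL23A1, a transmembrane collagen, had 0.750 to 2.40 FPKM in MV_PEEP, 0.327 to 0.783 FPKM in MV and 0.658 to 1.15 FPKM in CON. Their log2 fold changes of MV against CON were -0.10 and -0.83, and without CON replicate 2 they were 0.11 and -0.87. COL8A2, the partner chain of COL8A1, had 1.66 FPKM in MV_PEEP replicate 3, 1.21 FPKM in CON replicate 2 and at most 0.130 FPKM elsewhere. COL13A1, a transmembrane collagen of the neuromuscular junction, had 0.809 FPKM in CON replicate 2, 0.761 FPKM in MV_PEEP replicate 3 and at most 0.196 FPKM elsewhere. COL8A2 and COL13A1 were not tested.

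Genes that act on collagen were described by lists of 29, 14, 7 and 13 genes. Among the biosynthesis and cross-linking genes 24 were tested, 17 had a log2 fold change below 0 in MV against CON, the median was -0.28 and 0 had an unadjusted p under 0.05. PPIB, a proline isomerase of the endoplasmic reticulum, SERPINH1, the collagen chaperone HSP47, and PCOLCE, an enhancer of procollagen cleavage, had the highest levels, with log2 fold changes of 0.82, -0.33 and -1.09. SERPINH1 had 59.5, 77.2 and 516 FPKM in MV_PEEP, 149.9, 108 and 46.9 FPKM in MV, and 58.5, 158 and 137 FPKM in CON. MV replicate 1, with the lowest COL3A1 of all libraries, thus had the second highest SERPINH1 of the MV and CON libraries. Without CON replicate 2, 14 of these 24 genes lay below 0 in MV against CON, with a median of -0.16. In MV_PEEP against CON 5 of them lay below 0 with all libraries and 18 without MV_PEEP replicate 3, where 45.4% and 50.3% of all genes tested did.

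Among genes of collagen breakdown and its inhibitors 9 of 14 were tested. FAP, a protease of activated fibroblasts, had 0.887, 2.76 and 6.58 FPKM in MV_PEEP, 1.97, 2.45 and 2.94 FPKM in MV, and 4.06, 12.2 and 6.43 FPKM in CON. TIMP4, an inhibitor of matrix metalloproteinases, had 21.0, 14.4 and 23.6 FPKM in MV_PEEP, 15.2, 49.8 and 16.2 FPKM in MV, and 11.9, 8.51 and 7.70 FPKM in CON. For both genes MV and CON did not overlap, FAP being lower and TIMP4 higher in MV. Of the 14 genes of the list, 2 were lower (FAP and MRC2) and 2 higher (TIMP4 and TIMP1) in this sense. Of all genes tested, 4.91% were lower and 10.3% higher in this sense. The log2 fold changes of MV against CON were -1.61 ± 0.57 for FAP (SE, adjusted p = 0.567, edgeR) and 1.37 ± 0.50 for TIMP4 (SE, adjusted p = 0.595, edgeR). They were -1.29 and 1.18 without CON replicate 2, and neither then had an unadjusted p under 0.05. TIMP1, CTSK and MMP2 had the highest levels, with log2 fold changes of 1.44, -0.07 and -1.49, and without CON replicate 2 of 1.59, -0.09 and -0.68.

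All 7 collagen receptor genes were tested and all had log2 fold changes below 0 in MV against CON, with a median of -0.49. ITGA11, the integrin subunit that binds fibrillar collagen on fibroblasts, had 0.264, 0.563 and 1.01 FPKM in MV_PEEP, 0.541, 0.456 and 0.348 FPKM in MV, and 0.917, 4.05 and 1.24 FPKM in CON. The MV libraries lay below the CON libraries, with a log2 fold change of -2.21 ± 0.56 (SE, adjusted p = 0.387, edgeR). Without CON replicate 2 it was -1.51, with an unadjusted p of 0.0247 (edgeR), and 6 of the 7 receptor genes lay below 0. ITGB1, DDR1 and ITGA1 had the highest levels of this list, with -0.43, -0.05 and -0.22. Of the fibrogenic signalling genes 12 of 13 were tested, 7 lay below 0 and the median was -0.28. TGFB1, the main fibrogenic growth factor, had a log2 fold change of 0.09, and PDGFA and PDGFB, chains of platelet-derived growth factor, had -0.55 and -0.87. SMAD7, an inhibitor of TGF-beta signalling, had -1.61 ± 0.67 (SE, adjusted p = 0.676, edgeR), and -1.65 without CON replicate 2. Without that library 6 of the 12 genes lay below 0.

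Some collagen sequence in the table lies under names outside the rule. There were 31 rows with a symbol starting with LOC that are described by similarity as collagen alpha chains, and 13 of them reached 0.5 FPKM. They include partial models of the alpha-1(V) and alpha-1(I) chains, and alpha-1(XVIII), the other multiplexin, is listed only under such symbols. The partial alpha-1(V) model had 1.51 FPKM in MV_PEEP replicate 2 and 17.8 FPKM in MV_PEEP replicate 3. How reads were divided between such models and the named genes is not given, so the levels of COL1A1 and COL5A1 are uncertain to that extent.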

How the data were processed

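Per the submitters' processing notes, the authors used cutadapt 1.9, HISAT2 2.0.4, the OryCun2.0 assembly and StringTie 1.3.4d. The counting program and annotation release are not given in the sources used here. The deposited table holds whole-number counts and, per the file headers, FPKM values from the authors for 29076 genes. FPKM was set to 0 here wherever the count was 0, so a value listed at 0 may have been set in this way. Of the deposited counts from 1 to 12, 54.3% were 4, 8 or 12, so counts divided by 4 were tried.

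The 12981 genes whose mean FPKM was 0.5 or more were tested on their counts in edgeR 4.0.16 (R 4.3.3; TMM, 1 mean per group over 9 libraries, glmQLFit in its legacy form, glmQLFTest; Benjamini-Hochberg). The step was tested on simulated data. Alternatives were DESeq2 1.42.0, limma 3.58.1 on log2(FPKM + 1) and log2(FPKM + 0.1), other scalings and filters, a replicate block, fewer libraries and each library left out.

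Values in every library are given for genes whose mean FPKM was 10 or more, those at an unadjusted p under 0.05 in any comparison, the 2 highest of the fibrillar, basement membrane, beaded-filament and FACIT classes, and some others chosen after their values were seen (COL5A3, COL6A3, COL4A4 and SERPINH1 among them). Of the pathway lists, the 3 highest genes and those at an unadjusted p under 0.05 in MV against CON are named. MRC2 is named as a gene whose MV and CON libraries did not overlap. Genes and lists were chosen with earlier results of these data known. The reference gene table (mOryCun1.1) was used for names only.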

Additional observations from a re-analysis of the deposited data

How the results depend on the processing

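In MV against CON, 4 genes were lower at an unadjusted p under 0.05. This count was 1 with library totals and with either limma fit, 7 of 31 genes with no filter, 15 with only the 6 libraries compared, 13 with MV_PEEP replicate 3 kept out of the shared spread, and 1 (without CON replicate 2) to 5 with 1 library left out. Of all genes, 1.89% were lower with library totals, 2.23% and 2.36% with the limma fits and 2.52% with no filter. With 1 library left out this share ran from 2.21% (without CON replicate 2) to 3.50% (without MV replicate 1). After adjustment DESeq2 called 1 gene, COL15A1. With 1 library left out, the log2 fold change ranged from -0.45 to 0.13 for COL4A1 and from -0.66 to 0.26 for COL4A2, and without both CON replicate 2 and MV_PEEP replicate 3, a setting added after the data were seen, it was 0.17 and 0.29.

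In MV_PEEP against CON, 2 genes were lower. The count was 0 with library totals and with either limma fit, 4 with DESeq2, 1 with the replicate block, 4 without both libraries, and 0 to 11 with 1 library left out. Of all genes, 1.44% were lower with library totals, 1.87% and 1.74% with the limma fits, 3.67% with DESeq2 and 2.63% with the block. With 1 library left out this share ran from 1.96% (without CON replicate 1) to 3.81% (without MV_PEEP replicate 1). Collagen genes that were higher numbered 2 with DESeq2, 1 with no filter and 0 to 2 with 1 library left out. Of all genes, 3.87% were higher with DESeq2 and 3.17% with no filter. With 1 library left out, 9 to 23 genes lay below 0, the median of the 24 collagen genes ranged from -1.34 to 0.70 and that of fibrillar genes from -1.97 to 1.24, COL1A1 from -2.21 to 2.18 and COL3A1 from -1.92 to 1.26. Without both libraries, 23 genes lay below 0 and COL1A1 and COL3A1 had -1.08 and -1.23. COL3A1 also lay below 0 with limma on log2(FPKM + 1) at -0.14, with limma on log2(FPKM + 0.1) at -0.15 and with the block at -0.19.

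In MV_PEEP against MV, 6 genes were higher. The count was 0 with either limma fit, 1 with the replicate block, 1 with only the 6 libraries compared, 0 without both libraries, and 0 to 12 with 1 library left out. It was 8 with library totals, 9 with DESeq2 and 9 of 31 genes with no filter. Of all genes, 1.64% and 1.70% were higher with the limma fits, 1.18% with the block, 1.39% with the 6 libraries and 0.716% without both. The share was 3.38% with library totals, 2.83% with DESeq2 and 2.61% with no filter. With 1 library left out this share ran from 0.786% (without MV_PEEP replicate 3) to 4.96% (without MV_PEEP replicate 1). With 1 library left out, 0 to 1 genes were lower and 3 to 13 lay below 0 (without both, 1 and 13). The class medians then ranged from -0.29 to 2.55 for fibrillar, from 0.16 to 0.997 for basement membrane, from 0.35 to 2.48 for beaded-filament and from -1.25 to 1.301 for FACIT genes (without both, -0.29, 0.16, 0.35 and -1.25), COL5A1 from -0.28 to 2.90 and COL1A1 from -0.49 to 3.39 (without both, -0.28 and -0.49).

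The replicate block gave 4 lower genes in MV against CON, 3 of them shared, with COL14A1 in place of COL11A2. In MV_PEEP against CON it moved the number of genes below 0 to 17, the median of the 24 genes to -0.19 and that of the fibrillar genes to -0.08. Replicate numbers did not pair the libraries, whose deviations from their group means correlated with r of -0.28 to 0.37 at equal numbers, with 2 of 9 libraries most like one of equal number. Scaling by library totals moved the median of all genes to 0.13, 0.42 and 0.25 in MV against CON, MV_PEEP against CON and MV_PEEP against MV, and kept 23, 22 and 24 of the 24 directions. Over 52 results and 906 values under alternatives, 841 were classed as the same, and 16, all of single genes, reversed direction. This tally does not measure stability. No gene was called after adjustment in the main fit, so none could lose a call. A median could change sign and count as the same. For the basement membrane genes in MV_PEEP against CON it was -0.08 in the main fit and -0.48 to 0.29 elsewhere. For the 24 genes in MV_PEEP against MV it was 1.08, and -0.25 without MV_PEEP replicate 3. Both counted as the same in 17 of 17 alternatives. The cause of the changes was not tested. With 3 libraries per group and a biological coefficient of variation of 0.552, these data resolve only large differences in single genes, and low genes such as COL6A3, with 4 counts in MV replicate 3, least of all.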
